A study of Rattus norvegicus with 27 samples.

Results

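The comparison described here sets rat oligodendrocyte precursor cells (OPCs) that had been cultured for 96 h with T3 and IFNγ against the PDGF-expanded progenitors from which such cultures start. Both groups are arrays of 3 donors, so 6 of the 27 arrays of the series enter it directly, and the T3 cultures at 96 h (3 arrays, 1 per donor) are given beside them. All 14217 genes that a single-symbol probe set of the array measures were compared, each through its brightest probe set, with the 2 arrays of a donor paired. The cells were OPCs from the cerebral cortex of postnatal Sprague-Dawley rats, selected with A2B5 magnetic beads and expanded with PDGF, so every group shares that history. The progenitors were taken at 0 h under PDGF. The other groups were given T3 (thyroid hormone) alone or together with IFNγ for 8, 24, 48 or 96 h, and the sources used here do not say whether PDGF was still present. No arrays of PDGF at 96 h were analysed here, and T3, IFNγ, any change in PDGF and time in culture cannot be told apart in a difference from the progenitors. A value is a log2 RMA signal, so a difference of 1 is 2-fold, and a gene was called when its limma adjusted p was under 0.05. Values by array are given in the order of donors 1, 2 and 3.

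PDGF is the mitogen that keeps OPCs dividing, and thyroid hormone is the classical signal with which cultured OPCs leave the cell cycle and become oligodendrocytes that make myelin proteins and lipids. IFNγ is a T cell cytokine. Its receptor signals through JAK kinases to a first wave of transcription factors such as IRF1 and to the class II transactivator CIITA, which together raise interferon-stimulated genes, the immunoproteasome and the MHC molecules that present peptides to T cells. The cultures thus received a differentiation signal and an inflammatory signal at once, and the comparison asks what state they had reached at 96 h.

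Relative to PDGF progenitors, the T3+IFNγ cultures expressed the genes of the dividing cell at much lower levels, most myelin genes at higher levels, and the interferon and antigen presentation genes at far higher levels. Of the 14217 genes, 3487 (24.5%) were higher and 4208 (29.6%) were lower, 54.1% in all. The median change over all genes was −0.02, which RMA holds near 0 by giving all arrays like distributions. At least 2-fold changes were found for 1252 higher genes (8.81%) and 1303 lower genes (9.17%), and at least 16-fold changes for 101 higher genes (0.71%) and 48 lower genes (0.338%). Of the 7695 called genes, 7595 (98.7%) moved the same way in 3 of 3 donors. The calls rest on these same arrays, so this share is a description and not a separate replication. Of the 6522 genes that were not called, 6449 had a 95% interval that lay within 1 of 0, so for these a change of 2-fold or more is outside the interval.

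**Figure D1:**
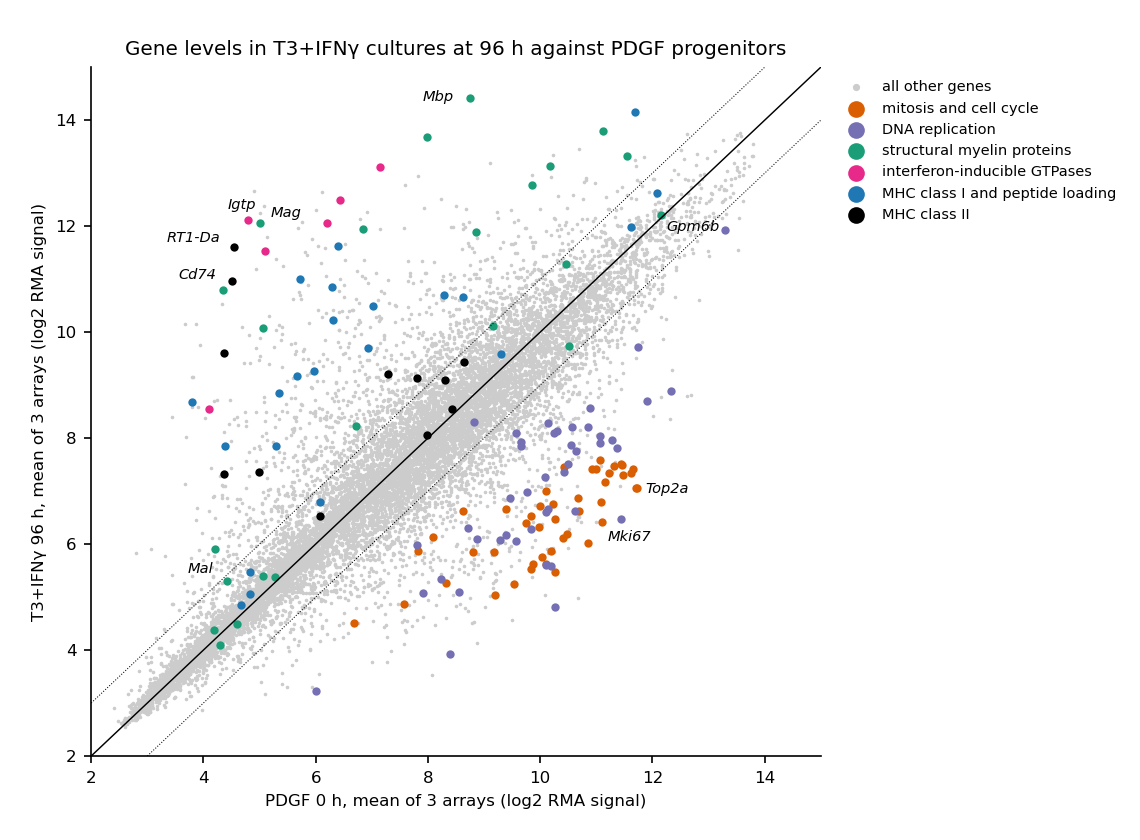
Mean log2 RMA signal of 3 arrays for each of the 14217 genes, with PDGF progenitors on the x axis and T3+IFNγ cultures at 96 h on the y axis; the solid line marks equal levels and the dotted lines 2-fold differences. Nearly all cell cycle genes (orange, violet) lie below the lines, and myelin (green), GTPase (pink) and MHC genes (blue, black) lie mostly above, with Gpm6b near the diagonal.

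The largest rises held interferon-induced and oligodendrocyte genes side by side. The 15 largest were Ubd, Igtp, Septin4, Dct, RT1-Da, Mag, Ptgds, Ifgga2l1, Psmb8, Plac8, Mobp, Gbp2, Cd74, Kcne4 and Rsad2, with changes from 7.76 to 6.30. T3 alone also raised Septin4 (7.51), Dct (7.09), Mag (7.94), Ptgds (6.89), Mobp (9.06) and Kcne4 (5.68), whereas the changes with T3 alone lay between −0.73 and 0.47 for Ubd, Igtp, RT1-Da, Ifgga2l1, Psmb8, Plac8, Gbp2, Cd74 and Rsad2. Ubd, which encodes the ubiquitin-like modifier FAT10, read 5.05, 4.81 and 4.82 in the progenitors and 12.57, 12.28 and 13.12 in the T3+IFNγ cultures, a change of 7.76 with a 95% interval of 7.14 to 8.38. Every T3+IFNγ array was far above every PDGF array.

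The 15 largest falls were Calcb, Uhrf1, Shcbp1, Mcm6, Dscc1, Ccna2, Ttk, Ska1, Mki67, Top2a, Cdk1, Gins1, Aspm, Ube2t and Fbn2, and with T3 alone their changes lay between −5.76 and −4.28. Most of them act in DNA replication or mitosis. Calcb, which encodes the neuropeptide β-CGRP, had the largest, from 10.49, 10.72 and 10.80 to levels between 4.82 and 5.11, a fall of 5.70 (limma adjusted p = 3.19e-08). Fbn2, which encodes the extracellular matrix protein fibrillin-2, fell by 4.53. Neither of these is a cell cycle gene.

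Because genes of a kind moved together, the promoters of 6 of them are shown, 3 of interferon-induced genes, 1 of a myelin gene and 2 of mitotic genes. The sequences are those RefSeq gives for build GRCr8, from 250 bases before the start to 50 after it, 5′ to 3′ on the strand of the gene. Capitals mark matches on either strand to 5 motifs, which did not overlap each other here: the ISRE core that IRF factors bind (2 copies of GAAA with 2 bases between them), the GAS element of IFNγ-induced genes (TTCNNNGAA), the CHR of cell cycle genes (TTTGAA), the CCAAT box (CCAAT) and the E2F site (TTTCCCGC or TTTGGCGC).
Igtp, chr10:42874797-42875096, plus strand: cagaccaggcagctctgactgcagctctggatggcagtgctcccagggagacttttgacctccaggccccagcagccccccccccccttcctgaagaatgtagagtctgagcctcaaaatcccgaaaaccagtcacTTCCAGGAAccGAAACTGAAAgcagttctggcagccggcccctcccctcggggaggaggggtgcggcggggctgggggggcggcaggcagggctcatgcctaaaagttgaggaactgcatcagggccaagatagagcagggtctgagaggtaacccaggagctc
Gbp7, chr2:233948639-233948938, plus strand: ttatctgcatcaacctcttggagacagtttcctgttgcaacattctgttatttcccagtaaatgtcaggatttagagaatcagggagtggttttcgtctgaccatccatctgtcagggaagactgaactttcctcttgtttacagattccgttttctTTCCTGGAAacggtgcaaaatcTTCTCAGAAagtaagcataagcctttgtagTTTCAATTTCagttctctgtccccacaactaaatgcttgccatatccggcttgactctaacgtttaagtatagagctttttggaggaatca
Irf1, chr10:38417685-38417984, plus strand: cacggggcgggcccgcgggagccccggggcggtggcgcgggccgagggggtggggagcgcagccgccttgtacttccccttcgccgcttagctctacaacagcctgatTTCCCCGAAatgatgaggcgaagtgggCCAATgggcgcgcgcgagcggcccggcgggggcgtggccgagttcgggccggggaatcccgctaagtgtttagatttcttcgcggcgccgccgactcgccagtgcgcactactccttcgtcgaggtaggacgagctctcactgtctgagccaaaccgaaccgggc
Mag, chr1:95290995-95291294, minus strand: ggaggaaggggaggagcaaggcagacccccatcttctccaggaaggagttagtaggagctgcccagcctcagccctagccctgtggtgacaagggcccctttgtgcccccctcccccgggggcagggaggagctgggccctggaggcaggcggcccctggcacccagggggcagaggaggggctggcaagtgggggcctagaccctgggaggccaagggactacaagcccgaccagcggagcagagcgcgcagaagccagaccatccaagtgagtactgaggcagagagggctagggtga
Top2a, chr10:84473044-84473343, minus strand: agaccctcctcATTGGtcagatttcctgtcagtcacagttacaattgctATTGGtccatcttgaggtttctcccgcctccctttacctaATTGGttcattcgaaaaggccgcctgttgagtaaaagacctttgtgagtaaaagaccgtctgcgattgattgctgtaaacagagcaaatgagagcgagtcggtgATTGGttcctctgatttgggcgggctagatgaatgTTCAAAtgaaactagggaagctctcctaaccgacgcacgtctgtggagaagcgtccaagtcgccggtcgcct
Cdk1, chr20:19265043-19265342, plus strand: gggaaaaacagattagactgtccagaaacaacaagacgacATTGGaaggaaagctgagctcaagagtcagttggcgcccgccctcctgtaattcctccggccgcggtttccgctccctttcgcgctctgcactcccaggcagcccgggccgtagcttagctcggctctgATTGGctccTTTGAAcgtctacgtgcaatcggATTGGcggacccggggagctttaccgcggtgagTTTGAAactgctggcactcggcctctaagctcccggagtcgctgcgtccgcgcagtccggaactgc
The promoters of Igtp and Gbp7 held both an ISRE core and a GAS match, that of Irf1 a GAS match and a CCAAT box, that of Mag none of the 5, and those of Top2a and Cdk1 CHR and CCAAT matches. Over the 50 largest called rises, for which 50 promoters of 43 genes were given, 26% held an ISRE core and 20% a GAS match, against 3.02% and 7.33% of the 13193 promoters of measured genes and 3.92% and 8.87% of all 33469 promoters. Over the 50 largest called falls, with 44 promoters of 40 genes, 0 held an ISRE core, 45.5% a CHR, 61.4% a CCAAT box and 15.9% an E2F site, against 12.8%, 36.8% and 2.46% of the promoters of measured genes and 18.3%, 37.5% and 1.45% of all promoters for the last 3. Genes were placed in these groups by the same arrays, several are members of a family with related promoters, and a match is only a run of letters.

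Cell cycle genes were lower throughout. All 45 measured genes of mitosis and the cell cycle were lower in T3+IFNγ cultures than in progenitors, each by more than 2-fold, with a median change of −3.89. All 44 genes of DNA replication were lower, 43 of them by at least 2-fold, with a median of −2.88. Cdk1, the kinase that drives entry into mitosis, read 11.71, 11.71 and 11.73 in the progenitors and 6.26, 8.11 and 6.81 in the T3+IFNγ cultures, a fall of 4.66 (95% interval −5.42 to −3.90). Top2a, the topoisomerase of dividing cells whose promoter is shown above, went from 11.59, 11.69 and 11.90 to 6.12, 8.09 and 6.99. Uhrf1, which maintains DNA methylation at replication, went from 10.06, 10.40 and 10.33 to 4.34, 5.21 and 4.90, a fall of 5.45. The groups did not overlap for any of these, and donor 2 kept the highest level among the T3+IFNγ arrays. In that donor the median change over the mitosis list was −3.17, against −4.42 and −4.08 in donors 1 and 3. The replicative helicase subunit Mcm6, the helicase partner Gins1, the licensing factor Cdt1 and the exonuclease Exo1 changed by −4.97, −4.62, −4.50 and −4.48. Ccna2 (cyclin A2), the spindle checkpoint kinase Ttk and the proliferation antigen Mki67 changed by −4.85, −4.79 and −4.69.

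T3 alone, which changed 57.8% of all genes against PDGF (26% higher and 31.7% lower), lowered all 45 mitosis genes and 43 of the 44 replication genes, with medians of −4.40 and −2.82. The 2 comparisons share the PDGF arrays. The direct test of T3+IFNγ against T3 at 96 h, in which 18.9% of all genes were called, found 3 mitosis genes higher and 2 lower, and 1 replication gene higher and 7 lower. A difference between the 2 differentiated cultures was therefore not detected for most of this group. For Cdk1 the direct difference was 0.45 with a 95% interval of −0.31 to 1.21, so a difference of up to about 2-fold lies within it.

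Regulators of the cycle were mixed. Of 31 cyclins, CDK inhibitors and Rb/E2F genes, 18 were lower and 7 higher (median −0.73). E2f8 and E2f7, which encode repressors that are themselves made in S phase, changed by −3.86 and −3.28, and Ccne1 (cyclin E1) by −3.23. Gadd45b, a stress-induced growth arrest gene, went the other way, from 6.05, 5.48 and 6.06 to 11.00, 10.80 and 10.89, a rise of 5.03. Its relative Gadd45a rose by 3.65, the CDK inhibitor Cdkn1c (p57) by 1.69 and the p53 antagonist Mdm2 by 0.65. With T3 alone Gadd45b, Gadd45a, Cdkn1c and Mdm2 rose as well, by 4.07, 2.95, 2.76 and 0.59. In the direct test Gadd45b and Gadd45a lay 0.96 and 0.69 above T3, Cdkn1c lay 1.06 below it and Mdm2 was not called (0.06). Cdkn1b (p27), the best-known inhibitor of OPC division, was not called (0.24, 95% interval 0.02 to 0.46, limma adjusted p = 0.0587).

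The transcripts that growth factor signalling through MAPK induces were lower on balance, with 19 of 40 lower and 5 higher (median −0.24). Etv5, an ETS factor downstream of receptor tyrosine kinases, fell by 3.55. The immediate early factor Egr1 fell from 12.12, 12.17 and 12.17 to 8.60, 8.97 and 8.74, with no overlap. Egr2, Klf10 and the feedback inhibitor Spry4 changed by −3.50, −2.90 and −2.88. Among the rises, Dusp7, Jun and Pdgfa, the ligand of the PDGF receptor, were also higher with T3 alone, at 1.80, 1.52 and 1.48 with T3+IFNγ against 2.20, 1.46 and 1.09 with T3. Rgs2, a regulator of G protein signalling, differed between the cultures: it rose from 8.35, 8.37 and 8.42 to 10.43, 9.79 and 9.62 with T3+IFNγ, while T3 arrays read 7.87, 7.53 and 7.65. The direct difference was 2.26 (limma adjusted p = 3.53e-08).

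Structural myelin genes rose in most cases, by amounts that differed widely between genes. Of 23 measured members, 17 were higher, 13 of them by at least 2-fold, 1 was lower and 5 were not called (median 1.70). Mbp, myelin basic protein, read 8.47, 8.84 and 8.94 in the progenitors and 14.40, 14.40 and 14.43 in the T3+IFNγ cultures, a rise of 5.66. Mag, the adhesion molecule of the inner myelin membrane, went from 4.99, 5.08 and 4.93 to 11.78, 12.12 and 12.26, a rise of 7.05. Cldn11, the claudin of myelin tight junctions, rose by 5.70 and Nfasc, an adhesion molecule of the axon-glia junction, by 5.10. For these genes T3+IFNγ cultures sat well clear of the progenitors in each donor.

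The direct difference from T3 cultures varied within the list. In the direct test against T3 at 96 h, 11 of the 23 were lower with T3+IFNγ and 0 were higher (among all genes 7.9% were lower and 11% higher, or 1422 lower and 1368 higher with arrays centred on their medians and 1372 and 1443 with quantile normalization, against 1123 and 1562). Mbp differed by −0.07, Cldn11 by −0.13 and Nfasc by −0.32, none of them called, with T3 means of 14.48, 13.81 and 12.25. The Mbp signals lay close to the highest value on any array, 14.5, so a difference between the cultures might not show there and the rise of Mbp from PDGF may be larger than measured. Mobp, a compact myelin protein, rose to 9.78, 11.14 and 11.48 from 4.61, 4.34 and 4.08 but lay below the T3 mean of 13.40 (limma adjusted p = 1.05e-06). Mog, a surface protein of mature myelin, rose to 9.05, 10.52 and 10.64 and lay 1.93 below T3, and Mag lay 0.89 below T3. Donor 1 had the lowest T3+IFNγ level of all 3 genes.

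The gap to T3 was wide for several others. Mal, a proteolipid of compact myelin, and Opalin, a transmembrane protein of oligodendrocytes, are named after their values were seen. Mal read 4.61, 4.34 and 4.30 in progenitors and 5.10, 5.20 and 5.61 with T3+IFNγ, a rise of 0.89, against a mean of 10.24 with T3, so the direct difference was −4.94 (limma adjusted p = 4.4e-14). Opalin rose by 1.70 and lay 3.68 below T3. Ermn, a cytoskeletal protein of late oligodendrocytes, was not called against PDGF (0.19, 95% interval −0.16 to 0.54) and lay 2.47 below T3. With the mean of all its probe sets in place of the brightest, the change of Ermn from PDGF was 0.99 and was called. Hapln2, the nodal matrix link protein, was not called either (0.11), and its difference from T3 was −1.36. Gpm6b, a proteolipid that OPCs already express, read 12.19, 12.09 and 12.18 against 12.29, 12.09 and 12.23, a change of 0.05 (95% interval −0.13 to 0.24). Pmp22, the single lower member, fell by 0.77.

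**Figure D2:**
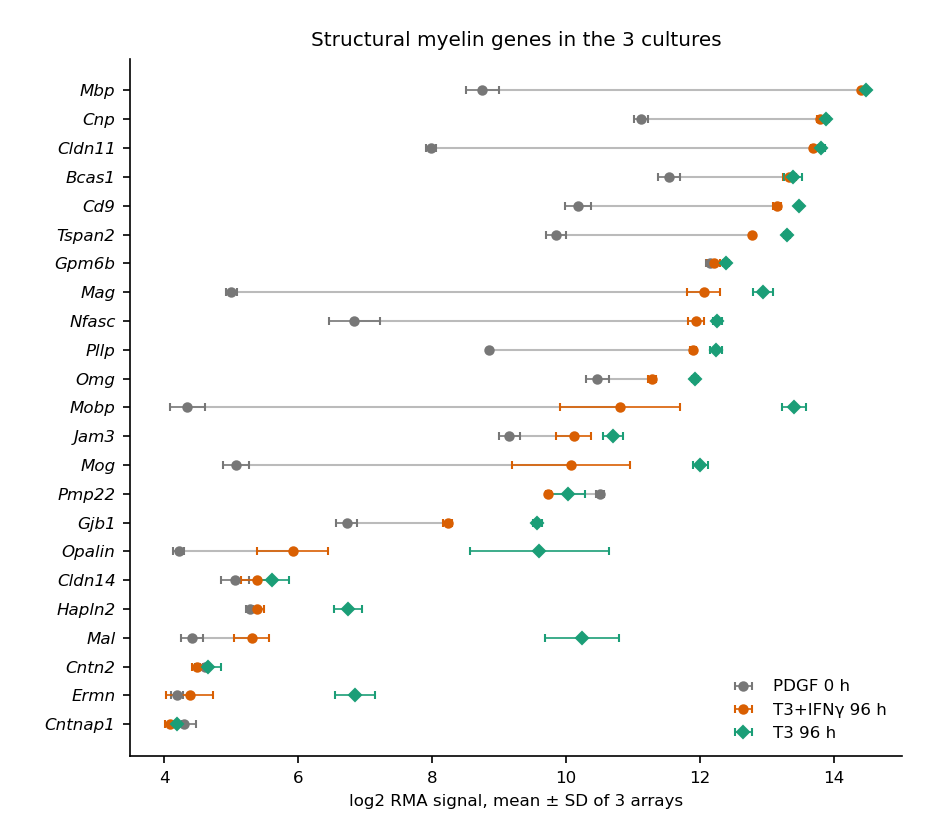
Mean log2 RMA signal with SD over 3 arrays for each of the 23 structural myelin genes in PDGF progenitors (grey), T3+IFNγ cultures at 96 h (orange) and T3 cultures at 96 h (green diamonds); levels are to be read within a gene, since probe sets differ in brightness. Mbp, Cnp and Cldn11 nearly coincide in the 2 differentiated cultures, whereas Mal, Ermn and Hapln2 sit near the progenitor level with T3+IFNγ.

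Enzymes and receptors of mature oligodendrocytes followed the same division. Of 40 measured genes, 31 were higher and 1 lower than in progenitors (median 1.62), and against T3 4 were higher and 17 lower. Ptgds, prostaglandin D synthase, read 4.21, 4.20 and 4.03 in the progenitors and 11.43, 10.98 and 10.81 with T3+IFNγ. The lysophosphatidic acid receptor Lpar1 rose by 5.82 and Aspa, which cleaves N-acetylaspartate in oligodendrocytes, by 5.62. Ptgds, Lpar1 and Aspa were not called against T3 (0.04, −0.49 and −0.15). The receptor Gpr37 also rose by 5.82 but lay 2.07 below T3. Galnt6, a mucin-type glycosyltransferase, stayed at 4.04, 3.87 and 3.69 against 3.82, 4.01 and 3.68 in progenitors (0.03, 95% interval −0.26 to 0.32), while T3 arrays averaged 6.93. Car2, carbonic anhydrase 2, was not called against PDGF (0.45) and lay 3.02 below T3. Serpinb1a, a serine protease inhibitor, was above both: it went from 5.46, 6.36 and 6.32 to 11.19, 11.82 and 11.85, against a mean of 7.64 with T3. Nkain1 fell by 1.10.

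Genes of the premyelinating stage showed no such gap. Of 19, 18 were higher, 16 by at least 2-fold, and 0 lower (median 1.93, and 1.84 with T3). Enpp6, a choline phosphodiesterase that marks newly formed oligodendrocytes, rose from 5.16, 5.23 and 5.13 to 10.37, 10.33 and 10.21. Bmp4, the adaptor Cnksr3, the phosphatase Dusp15 and the GTPase Rras2 rose by 4.51, 3.98, 3.78 and 3.31. None of these 5 was called in the direct test against T3, in which 2 of the 19 genes were higher and 2 lower.

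Lipid enzymes of the myelin membrane were higher in part. Of 37 genes of fatty acid and myelin lipid synthesis, 14 were higher and 6 lower (median 0.21), with 10 lower than in T3 cultures and 2 higher. The share called against PDGF, 54.1%, was that of all genes. Ugt8, which makes galactosylceramide, rose from 7.49, 6.04 and 6.66 to 10.98, 11.11 and 11.34, a rise of 4.42. The acyltransferase Agpat4 rose by 3.71, Fa2h, which hydroxylates the fatty acids of myelin lipids, from a mean of 5.90 to 8.49, the elongase Elovl1 by 2.04 and the acyl-CoA synthetase Acsl3 by 1.17. Fa2h and Elovl1 lay 0.99 and 0.74 below T3. B4galt6, Gnpat, Acsl4 and Cers4 fell, by 1.02, 0.92, 0.86 and 0.67. Of 25 cholesterol synthesis genes 10 were higher and 3 lower than in progenitors (median 0.08), and with T3 alone 14 were higher and 1 lower (median 0.52), but in the direct test 2 were higher with T3+IFNγ, 3 lower and 20 not called. Without donor 2 or donor 3, 4 and 5 cholesterol genes were higher and 1 lower in each case. With all donors, 52% of the cholesterol genes were called against PDGF, near the share of all genes. Insig2, which retains the sterol sensor in the endoplasmic reticulum, rose by 1.48, Tm7sf2 by 1.25 and the regulator Srebf1 by 0.97, and the sterol carrier Stard4 fell by 1.14.

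The transcription factors of the lineage had moved with differentiation. Of 29, 16 were higher, 13 of them by at least 2-fold, and 5 lower (median 0.76). Myrf, which switches on the myelin genes, rose from 5.09, 5.56 and 5.58 to 9.86, 9.99 and 10.05, a rise of 4.56. The deacetylases Sirt2 and Hdac11 rose by 4.08 and 3.61, the zinc finger factor Zfp536 by 3.31 and Klf9, a direct target of the thyroid hormone receptor, by 3.09. Myrf lay 0.67 below T3 (limma adjusted p = 0.0322), and Sirt2, Hdac11, Zfp536 and Klf9 were not called against T3. The identity factors changed little. Olig1 read 12.52, 12.81 and 12.68 against 12.29, 12.68 and 12.61 (−0.14, not called), Olig2 changed by 0.42 and was not called, and Sox10 rose by 0.44 (limma adjusted p = 0.0375). Carm1, Etv1, Myt1 and Chd7 fell, by 1.08, 0.95, 0.79 and 0.50, and the call of Myt1 did not hold without donor 2 or without donor 3 (limma adjusted p = 0.0951 and 0.0624).

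Progenitor receptors and matrix genes did not leave as a group, with 12 of 39 higher and 13 lower (median −0.07). In all 64.1% were called, against 54.1% of all genes. T3 alone gave nearly the same counts, 13 higher and 13 lower (median −0.065). Pdgfra, the PDGF receptor that defines OPCs, read 12.68, 12.77 and 12.77 in the progenitors and 12.12, 12.45 and 12.23 in the T3+IFNγ cultures, a fall of 0.47 (95% interval −0.76 to −0.19). With T3 alone its mean was 11.32, and the T3+IFNγ cultures lay 0.95 above it (limma adjusted p = 2.09e-05). Cspg4, the NG2 proteoglycan, fell by 1.37. The retinaldehyde-binding protein Rlbp1 fell from 11.36, 11.31 and 11.30 to 8.21, 9.09 and 8.23, and the matrix protein Tnc by 2.76. Against them Sema5a, Fgfr2 and Tnr rose by 4.70, 4.24 and 3.74, and Bcan (brevican) by 1.56. Sema5a, Fgfr2 and Tnr were not called in the direct test against T3 (−0.10, −0.17 and −0.32).

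Among 36 Sox, Hes and Id genes and other progenitor regulators, 15 were lower and 5 higher (median −0.30), or 8 higher without donor 1. The share called, 55.6%, was near the 54.1% of all genes. Sox11, a factor of immature neural cells, fell from 8.98, 8.41 and 8.84 to 6.73, 6.98 and 6.70, a change of −1.94. It lay 1.60 above T3, where the arrays averaged 5.20. Mycn and the Hippo pathway factor Tead1 fell by 2.02 and 1.75. Id1, an inhibitor of bHLH factors, fell by 2.29, but its T3+IFNγ arrays spread over 6.06, 7.29 and 8.00 and the call did not hold without the donor block (limma adjusted p = 0.0552) or without donor 2 (0.0556). Hopx, Id4, Gli2 and Dll3 rose, by 2.31, 0.92, 0.61 and 0.47, the last not without donor 2 (limma adjusted p = 0.0675). Sox2, a stem cell factor, read 12.10, 11.98 and 12.11 against 12.13, 12.01 and 12.10, a change of 0.01 (95% interval −0.18 to 0.21).

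Of 21 genes of thyroid hormone action, 8 were higher, 3 lower and 10 not called, a share of calls near that of all genes, and with T3 alone 13 were higher and 3 lower. Thrb, the receptor itself, went from 6.44, 6.27 and 6.16 to 9.75, 9.18 and 9.39, a rise of 3.15. The T3-binding protein Crym rose by 3.14 and the corepressor Hr by 2.36. Thrsp, a lipogenic T3 target, rose by 3.35 and lay 1.63 above T3 alone (limma adjusted p = 0.000168). Slco1c1, a thyroid hormone transporter, fell by 1.20, the coactivator Ncoa1 by 0.54 and the corepressor Ncor1 by 0.36, the last not without donor 1 (limma adjusted p = 0.123).

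The interferon response filled the other side of the comparison. All 6 measured interferon-inducible GTPases, which attack intracellular pathogens, were higher, by a median of 6.01. Igtp read 4.29, 4.89 and 5.18 in the progenitors and 12.04, 12.08 and 12.25 in the T3+IFNγ cultures, a rise of 7.34. Gbp2, Gbp7, Irgm2 and Irgm rose by 6.45, 6.04, 5.98 and 5.87. Gbp7 went from 6.54, 6.45 and 6.33 to 12.54, 12.34 and 12.58, while the T3 arrays read 4.70, 4.62 and 4.26. Its promoter and that of Igtp are the ISRE and GAS bearing sequences printed above.

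Of 51 interferon-stimulated antiviral genes, 44 were higher, 38 of them by at least 2-fold, and 1 was lower (median 2.85). With T3 alone 2 of the 51 were higher and 18 lower (median −0.22), and the direct test against T3 found 47 higher and 0 lower. Mx1, an antiviral GTPase, rose from 3.69, 3.75 and 4.15 to 10.43, 9.74 and 10.29, a rise of 6.29. Rsad2 (viperin), Ifit2, Rtp4 and Ifi44l rose by 6.30, 6.09, 5.41 and 5.35. Ifit1 was among the 6 that were not called (0.64). The lower gene was Apobec1, an RNA-editing cytidine deaminase, at −0.72, and its call held in only some settings (limma adjusted p from 0.0579 to 0.255 in the fits that lost it, among them those without the donor block, without donor 2 and without donor 3).

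In the signalling layer, 17 of 34 genes of the IFNγ receptor, JAK-STAT, IRF and SOCS families were higher and 5 lower (median 0.29). Irf1, the first transcription factor of the response, rose from 6.88, 6.91 and 6.95 to 12.11, 12.23 and 12.48, a rise of 5.36 (95% interval 5.06 to 5.66). Irf8, known from myeloid cells, rose from 4.87, 5.72 and 5.46 to 9.76, 10.31 and 10.32. Stat2 and Irf9, partners in the ISGF3 complex, rose by 3.53 and 3.47, and the feedback inhibitor Socs1 by 2.71. Negative regulators went the other way in part, with Socs5, Ptpn2, Ptpn1 and Socs3 lower by 0.77, 0.60, 0.52 and 0.43. The call of Socs3 did not hold without donor 3 (limma adjusted p = 0.0732). T3 alone lowered Socs5, Ptpn2 and Ptpn1 as well (−0.48, −0.80 and −0.60). None of these regulators was called in the direct test against T3 (−0.28, 0.19, 0.08 and −0.19). Ifngr2, a chain of the IFNγ receptor, was not called (−0.14).

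**Figure D3:**
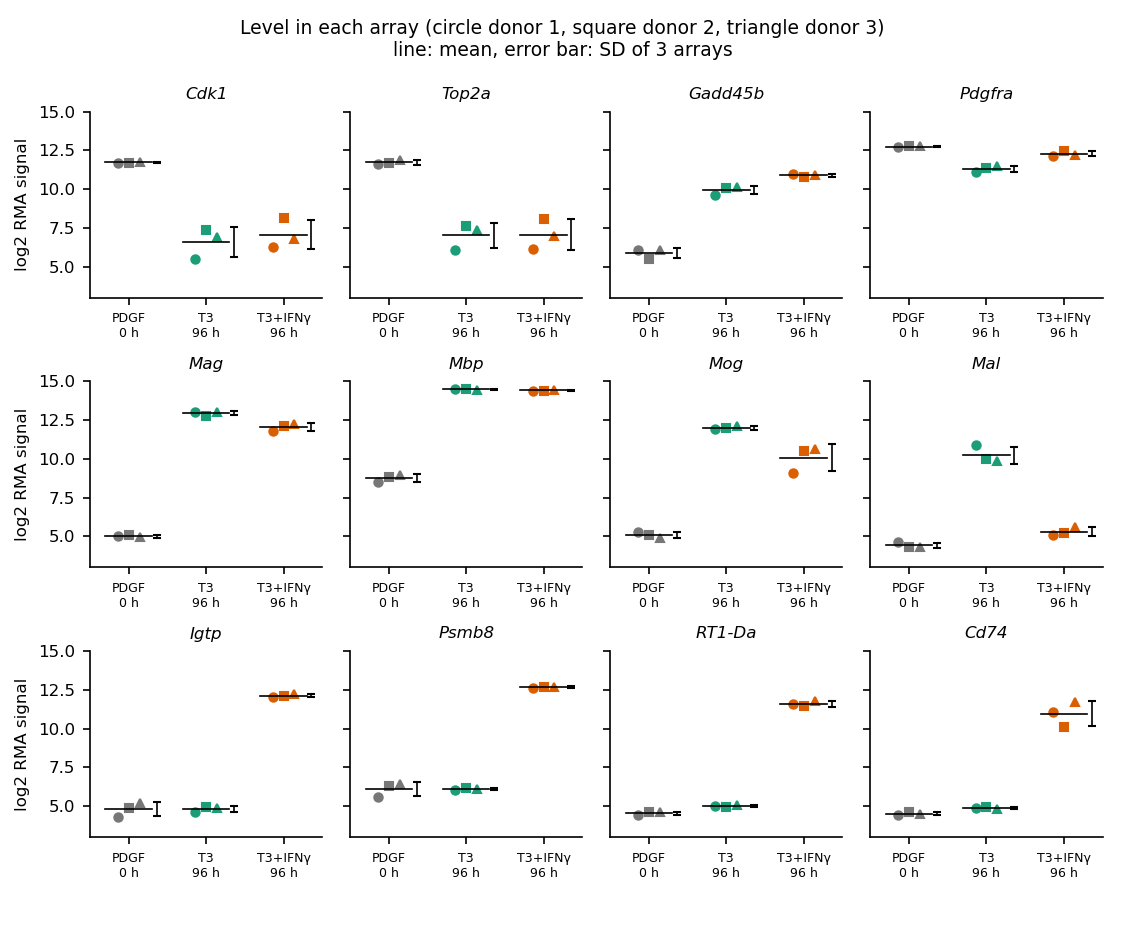
Log2 RMA signal of 12 genes in each array of PDGF progenitors, T3 cultures at 96 h and T3+IFNγ cultures at 96 h, with the mean of 3 arrays (line) and its SD (bar); symbols mark the donors. Cdk1 and Top2a fell in both differentiated cultures, Mag, Mbp and Mog rose in both, Mal rose mainly with T3, and Igtp, Psmb8, RT1-Da and Cd74 were high with T3+IFNγ.

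MHC class I and peptide loading genes were higher for 19 of 22, 15 of them by at least 2-fold, and lower for 0 (median 2.66, against 0.01 with T3 alone). Tap1, the peptide transporter of the endoplasmic reticulum, rose from 6.42, 6.34 and 6.42 to 11.48, 11.56 and 11.86, a rise of 5.24. Its partner Tap2 rose by 3.93. The class I genes RT1-S3, RT1-N2 and RT1-T24-4 rose by 5.29, 4.88 and 4.58. RT1-N2 spread over 9.89, 8.72 and 7.43 among the T3+IFNγ donors, far more than its 3.69, 3.82 and 3.88 in the progenitors, and RT1-T24-4 read 7.13, 5.74 and 5.97 in the progenitors and 11.74, 10.74 and 10.09 with T3+IFNγ. Rat class I genes are near-identical copies and the arrays were designed on reference alleles, so probes may be shared between them and the levels of single members are uncertain.

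The proteasome changed in its inducible part. Of the 6 genes of the immunoproteasome and its assembly, 5 were higher and 0 lower (median 3.46), and the assembly factor Pomp was not called (−0.05). Psmb8, a catalytic subunit, rose from 5.61, 6.28 and 6.44 to 12.58, 12.70 and 12.68, a rise of 6.54. Psmb9 went from 7.81, 7.66 and 8.01 to 12.93, 12.99 and 12.93, and Psmb10 rose by 3.87. The PA28 activator genes Psme2 and Psme1 rose by 3.04 and 2.32. With T3 alone 4 of the 6 were lower than in progenitors, among them Psmb9, with a change of −1.68, and Psme1. Of 31 constitutive proteasome genes 3 were higher and 7 lower, with changes from −0.48 to 0.43 and a median of −0.06. In all 32.3% were called, below the 54.1% of all genes. With T3 alone 20 of the 31 were lower and 1 higher (median −0.28), and the direct test found 11 higher with T3+IFNγ and 0 lower. The 3 higher genes were Psma3, Psmb4 and Psmd6 (0.43, 0.21 and 0.19), but only 1 gene was higher without donor 2 and 1 without donor 3, where 3 were lower.

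MHC class II genes rose as well. Of 12 genes, 10 were higher and 0 lower, 7 by at least 2-fold (median 1.62). RT1-Da, the class II α chain, read 4.43, 4.62 and 4.58 in the progenitors and 11.58, 11.42 and 11.80 in the T3+IFNγ cultures, a rise of 7.06. Cd74, the invariant chain, rose from 4.63 or less to 11.09, 10.08 and 11.70, and RT1-Db1 from 4.30, 4.20 and 4.58 to 9.62, 9.40 and 9.80. RT1-Bb rose by 2.97. Ciita, the master regulator of class II, rose from 5.11, 5.05 and 4.79 to 7.08, 7.23 and 7.79. In the T3 cultures RT1-Da, Cd74 and Ciita averaged 5.01, 4.87 and 5.13. The brightest probe set of RT1-Ba was not called (0.07).

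Microglia express class II and many of these genes too, and their markers were present in the cultures. Over 21 measured markers of microglia and macrophages the median level was 6.05, 7.34 and 7.40 in the progenitors, 7.52, 6.58 and 8.58 with T3+IFNγ and 5.42, 5.09 and 5.20 with T3 alone, and the summed level was 11.55, 12.55 and 12.64, then 13.90, 12.72 and 14.42, and 10.32, 9.78 and 10.23 on the log2 scale. Against the progenitors 7 of the 21 were higher and 4 lower (median 0.01), and the donors parted, with median changes of 0.85, −0.87 and 0.52. In all 52.4% were called, near the 54.1% of all genes. Without donor 2, 0 were lower, and without the donor block 4 were higher. With T3 alone 0 were higher and 20 lower (median −1.66), and the direct test of T3+IFNγ against T3 found 16 higher and 0 lower. Lyz2 (lysozyme) read 9.52, 10.47 and 10.56 in the progenitors, 13.21, 12.11 and 13.48 with T3+IFNγ and averaged 7.17 with T3. The Fc receptor Fcgr3a and the complement chains C1qc and C1qb rose by 2.56, 1.95 and 1.80, the last of these not without donor 1 (limma adjusted p = 0.0536). Mrc1 and Trem2 fell by 1.45 and 1.11, neither without donor 2 (limma adjusted p = 0.083 and 0.123). The defining markers Aif1, Csf1r, Ptprc and Tyrobp were not called against PDGF (0.27, −0.48, −0.75 and 0.01), and Itgam and Tmem119 stayed below the median of all values, 5.99, on all 6 arrays. In bulk cultures, more cells of a type and more RNA per cell cannot be told apart, and the part of microglia in the interferon, MHC and chemokine results was not tested.

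Of 47 chemokines and cytokines, 20 were higher, 14 by at least 2-fold, and 6 lower (median 0.14). In all 55.3% were called, near the 54.1% of all genes, of which 24.5% were higher and 29.6% lower. Cxcl10, which attracts T cells through CXCR3, rose from 3.64, 3.85 and 3.97 to 9.40, 8.48 and 9.58, a rise of 5.34. Il18bp, a decoy that neutralises IL-18, rose by 3.93, the monocyte chemokine Ccl2 by 3.75, Il15 by 3.63 and Cxcl9 by 3.46. Ccl3, Il18, Il33 and Cxcl2 were lower, by 1.37, 1.16, 0.87 and 0.81. The falls of Ccl3 and Il18 were not called without the donor block (limma adjusted p = 0.053 and 0.161), and that of Il18 not without donor 2 (0.0519). Il18 lay 1.75 above its T3 level, as T3 alone lowered it by 2.91. Tnf, Il6 and Il1b were not called (0.02, 0.16 and −0.19).

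Of 18 adhesion and co-stimulation genes, 6 were higher and 2 lower (median 0.02). The share called, 44.4%, was below the 54.1% of all genes. Lgals9 (galectin-9) rose from 4.88, 5.19 and 5.35 to 8.24, 7.40 and 8.27, Vsir by 1.71, Vcam1 by 1.63, Cd48 by 1.37 and Icam1 by 1.27. Vsir, Vcam1 and Cd48 rose by 1.64, 0.81 and 0.73 with T3 alone as well, and Lgals9 and Icam1 were not called there. In the direct test against T3, Lgals9, Vcam1 and Icam1 were higher (3.155, 0.82 and 1.51), and Vsir and Cd48 were not called (0.06 and 0.64). The co-stimulatory ligands Cd80 and Cd86 were not called (−0.06 and −0.02), nor was Cd40 (0.42), and Cd276 and Tnfsf9 fell by 0.85 and 0.66.

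Complement genes were higher for 8 of 20 and lower for 3 (median 0.28), with 5 higher in the fit without the donor block and 1 lower without donor 2. The share called, 55%, was near the 54.1% of all genes. C1qb and C1qc belong to this list and to the microglial one. C1s and C1r, the proteases of the classical pathway, rose from 4.51, 5.11 and 5.21 to 9.38, 9.48 and 10.21 and by 3.86, and Clu (clusterin) by 2.71. Serping1, the inhibitor of C1r and C1s, rose from 4.73, 6.70 and 6.68 to 10.41, 10.05 and 10.80, while T3 arrays read 3.56, 3.83 and 4.04. Masp1, of the lectin pathway, fell by 1.22.

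Cell death genes were higher for 20 of 37 and lower for 6 (median 0.47, 3 lower without donor 2), against 8 and 15 with T3 alone (median −0.17). Cflar (FLIP), which blocks caspase-8 activation, rose from 6.34, 6.51 and 6.35 to 8.70, 8.53 and 8.88. Gsdmd, the pore-former of pyroptosis, rose from 6.13, 6.24 and 6.25 to 8.46, 8.48 and 8.55, and Casp12 rose by 2.09. Birc2, an inhibitor of apoptosis, rose by 1.60, 0.89 above T3. Casp2, Fadd, Bik and Tnfrsf1a fell, by 1.43, 0.99, 0.71 and 0.48, and Tnfrsf1a was not called without donor 2 (limma adjusted p = 0.104). T3 alone lowered these genes as well (−1.48, −0.92, −0.84 and −1.17). In the direct test Tnfrsf1a lay 0.68 above T3, and Casp2, Fadd and Bik were not called.

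Stress and metabolic genes changed in smaller groups. Of 36 genes of tryptophan, nitric oxide and redox metabolism, 14 were higher and 7 lower, and the 58.3% called was near the 54.1% of all genes. The secreted peroxidase Gpx3 rose by 3.37, the thioredoxin inhibitor Txnip by 3.11 and the quinone reductase Nqo1 by 2.71, each with a T3 change of 2.00 to 2.36. Ido1, the IFNγ-induced tryptophan-degrading enzyme, rose from 4.67, 4.77 and 4.69 to 6.09, 6.74 and 6.18, and Nos2 was not called (−0.05). Cybb, the phagocyte oxidase, rose by 2.29, with donor 2 lowest at 5.83 beside 6.95 and 8.38. Of 40 endoplasmic reticulum stress and amino acid response genes, 13 were higher and 14 lower (median 0.047). At least 2-fold changes were found for 9 higher and 7 lower genes, so the list went both ways. Its largest changes were rises of the stress factors Atf3, from 4.82, 5.06 and 5.24 to 8.70, 7.35 and 8.06, and Ddit3 (2.66). Atf3 and Ddit3 lay 1.24 and 1.35 above T3.

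Lysosomal genes were higher for 31 of 35 and lower for 0 (median 1.04), and with T3 alone for 27 and 3. Ctsl (cathepsin L) rose from 10.14, 10.13 and 10.41 to 13.29, 13.33 and 13.41, and Manba, Scarb2, Lamp2 and Asah1 by 2.39, 2.17, 1.88 and 1.80. Scarb2 lay 0.98 below T3. Iron genes gave 3 higher and 6 lower of 16 (1 higher without donor 3), and the 56.2% called was near the 54.1% of all genes. The ferroxidase Cp rose by 1.92, the metal transporter Slc39a8 fell by 1.90 and the transferrin receptor Tfrc fell by 0.92, 0.75 below T3.

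Glycolytic genes went both ways, with 9 of 21 higher and 5 lower. Eno2, the neuronal enolase, rose from 7.74, 8.11 and 8.00 to 11.10, 11.04 and 11.21 and Aldoc by 1.63, while Eno1 fell by 0.92 and Ldha from 12.10, 11.96 and 11.93 to 10.52, 10.46 and 10.51, and Pgk1 and Tpi1 by 0.63 and 0.33. All 42 cytosolic ribosomal protein genes were lower, by a median of 0.59 with donor medians of −0.59, −0.58 and −0.62, and all 42 were lower with T3 alone (median −0.61). Rpl22 was the member with the largest fall, from 12.72, 12.68 and 12.71 to 11.58, 11.57 and 11.57. Of 77 respiratory chain and ATP synthase genes, 17 were higher and 14 lower (median −0.03), but 11 were higher without donor 2, and 9 higher and 7 lower without donor 3. With all donors 40.3% were called, below the 54.1% of all genes.

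Of 42 genes of tubulins, septins and the process cytoskeleton, 19 were higher and 17 lower. Septin4, a septin of the myelin sheath, rose from 4.83, 5.18 and 5.25 to 12.20, 12.40 and 12.52, and the tubulin-polymerising protein Tppp and Stmn4 rose by 5.18 and 3.34. Tubb6, Septin9 and Tubb5 fell by 2.95, 2.17 and 1.57. Channels and receptors changed in few members. The shares called were 34.7% for potassium channels, 40.5% for glutamate and GABA receptors and 36.4% for collagens, laminins and integrins. Each was below the 54.1% of all genes. Of 75 potassium channel genes 11 were higher and 15 lower, with the β subunit Kcne4 rising from 6.02, 5.70 and 5.54 to 11.62, 12.29 and 12.31 and Kcnd2 falling by 2.22. Kcna6 and Kcna1 rose by 1.53 and 0.90, below the T3 means of 7.78 and 8.48. Without donor 1 or donor 2, 7 potassium channel genes were higher. Of 42 glutamate and GABA receptor genes 10 were higher and 7 lower (5 higher without donor 2 or donor 3, and 2 lower without donor 3), and Gabrg1 rose by 1.62, 1.40 below T3. Of 77 collagens, laminins and integrins 11 were higher and 17 lower, with Col9a3 rising by 3.17 and Col4a1 and Col5a3 falling by 2.23 and 2.16.

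**Figure D4:**
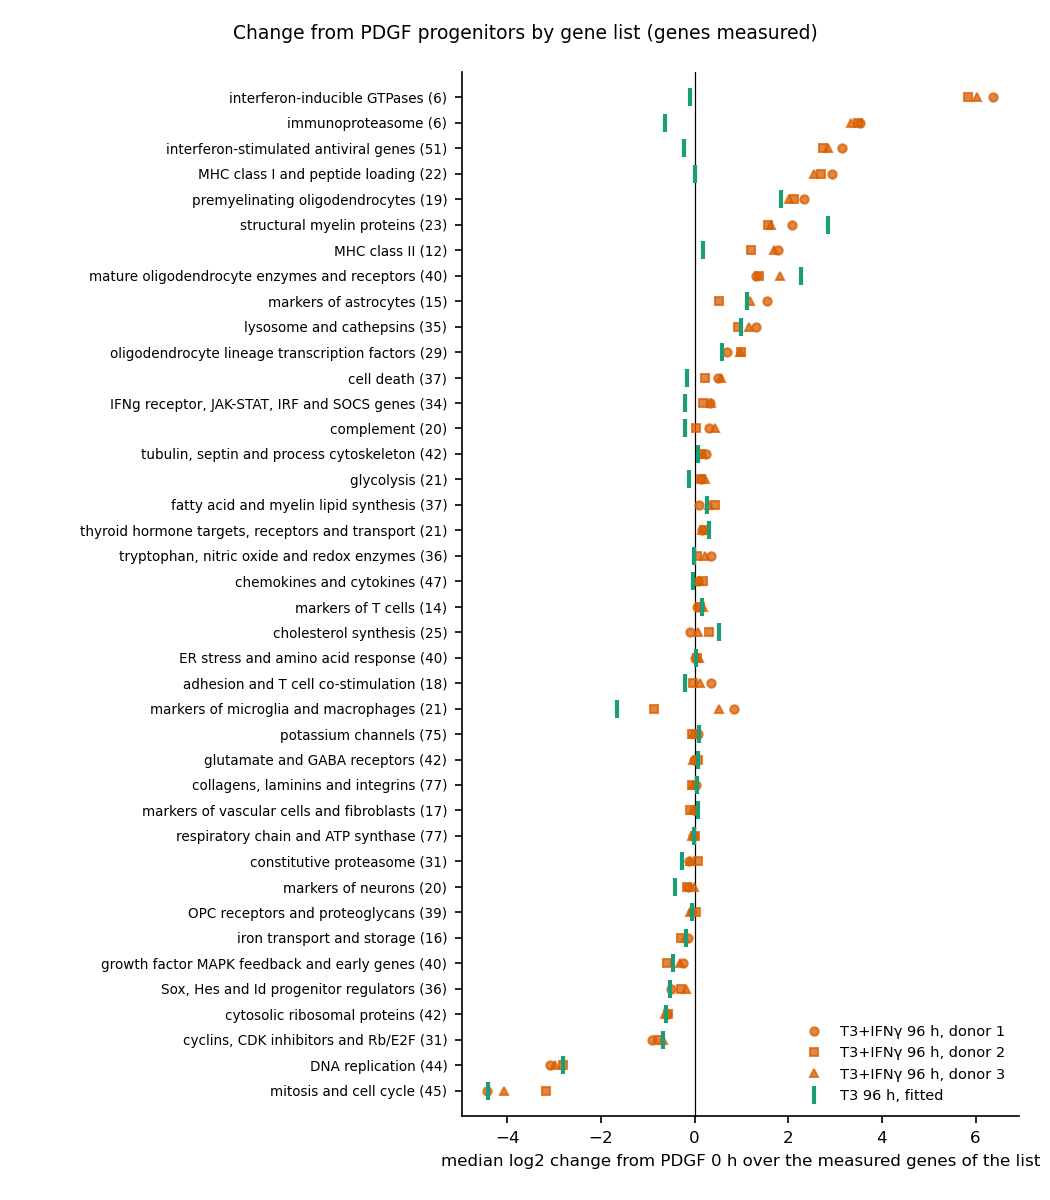
Median log2 change from PDGF progenitors over the measured genes of each of 40 lists, with T3+IFNγ at 96 h shown for each donor (orange symbols) and T3 at 96 h as the fitted median (green bars); the number of genes measured stands in parentheses. Cell cycle lists lie lowest and the GTPase list highest, and the microglial list has the widest spread between donors.

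Markers of other cell types were measured as well. Of 15 astrocyte markers 10 were higher and 2 lower (1 without donor 2, median 1.23, and 1.11 with T3 alone), and their median level was 8.76, 9.40 and 9.49 in progenitors and 10.15, 10.10 and 10.78 with T3+IFNγ. Ndrg2, Agt and Glul rose by 2.82, 2.64 and 2.05, genes that oligodendrocytes or other glia also express in part, and Gfap was not called (1.28, 95% interval 0.10 to 2.46, limma adjusted p = 0.0622). The 2 lower markers were Fgfr3 and Slc1a3, at −0.68 and −0.43. The call of Slc1a3 did not hold without donor 2 (limma adjusted p = 0.0631). Of 20 neuronal markers 5 were higher and 6 lower, and the 55% called was near the 54.1% of all genes. Gap43, which OPCs express too, fell from 12.26, 12.42 and 12.34 to 8.78, 9.82 and 9.26. The intermediate filament genes Nefl and Nefm and the tubulin gene Tubb3 rose by 1.53, 1.27 and 1.39 and lay 1.83, 2.06 and 1.80 above T3, while the synaptic marker Snap25 was not called (−0.26). Of 17 vascular and fibroblast markers 2 were higher and 2 lower, with 15 below the median of all values in the T3+IFNγ cultures. None of the 4 calls was kept in every fit. Of 14 T cell markers 4 were higher and 0 lower, or 2 higher without donor 1. With all donors 28.6% were called, below the 54.1% of all genes, and 11 of the 14 were below the median of all values with T3+IFNγ. Cd2 and Cd8a rose by 1.86 and 1.45, and the T cell receptor chains Cd3d, Cd3e and Cd3g were not called (−0.17, −0.16 and −0.18). Cd2 rose by 1.42 with T3 alone as well, and Cd8a averaged 5.875 with T3+IFNγ, below the median of all values, 5.99.

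For a small set of genes that T3 changed, the mean change from the progenitors with T3+IFNγ stayed within 2-fold. Single donors could differ more. Of the 414 genes that T3 raised at least 4-fold (2.91%), 11 had a T3+IFNγ change whose 95% interval lay within 1 of 0, and of the 441 that T3 lowered at least 4-fold (3.1%), 6 did. Beside Galnt6 and Ermn, the raised genes included Anxa2, a membrane-binding annexin (0.12 with T3+IFNγ, 2.53 with T3), Gsn, an actin-severing protein (0.34 and 2.32), and the kinase Dapk2 (0.25 and 2.20). Anxa2 read 10.11 on average with T3 and 7.69 with T3+IFNγ, beside 7.58 in the progenitors. The lowered genes were Mpeg1, Cd53, Prrg4, Plek, Cenpj and Tyrobp. Mpeg1, Cd53, Plek and Tyrobp are known from macrophages, with changes of −0.04, −0.09, 0.06 and 0.01 with T3+IFNγ and −3.99, −3.23, −2.29 and −2.20 with T3, and Cd53 and Tyrobp are members of the microglial list whose levels are given above. The donors parted for these genes. The change had the sign of its mean in 1 of 3 donors for Cd53 and in 2 of 3 for Mpeg1, Plek and Tyrobp. A mean near 0 therefore does not show that the level was kept in each donor. Mpeg1 was called lower without donor 1 (−0.86, limma adjusted p = 0.0144) and Plek higher without donor 2 (0.70, 0.0407). Gsn was called higher without donor 1 (0.52, 0.00462) and with quantile normalization (0.0256) and Dapk2 without donor 2 (0.37, 0.00483). Cenpj, a centriole gene, changed by −0.26 with T3+IFNγ, a call that did not hold without the donor block (limma adjusted p = 0.254), without donor 2 or donor 3 (0.216 and 0.0871) or with quantile normalization (0.077), and by −2.22 with T3.

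Others went in opposite directions in the 2 cultures, with 110 genes higher with T3+IFNγ and lower with T3 and 17 lower with T3+IFNγ and higher with T3. Psmb9, Serping1, Tap1, Gbp7 and Lyz2 belong to the first kind. In the second, Dusp1, a MAPK phosphatase, read 6.44 on average with T3+IFNγ, 7.11 in progenitors and 8.44 with T3, and Tmem178a 8.74, 9.71 and 11.16. Dusp1 fell by 0.67 and Tmem178a by 0.98 against PDGF.

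The 96 h state was reached in steps that differed between groups. The GTPases stood 6.24 above the progenitors in the median at 8 h, 6.32 at 24 h, 6.30 at 48 h and 6.01 at 96 h, and the immunoproteasome 3.19, 3.73, 3.72 and 3.46. MHC class I rose more slowly, with medians of 1.32, 2.36, 2.50 and 2.66, and class II had 1.13, 2.16, 1.70 and 1.62. The mitosis genes were at −0.00 at 8 h, −3.33 at 24 h, −2.32 at 48 h and −3.89 at 96 h, so the fall was smaller at 48 h than at 24 h, and T3 cultures had the same order (0.06, −2.74, −2.10 and −4.40). Premyelinating genes stood at 1.75 at 24 h, 2.36 at 48 h and 1.93 at 96 h. Structural myelin genes were at 0.54 at 24 h and 0.36 at 48 h and reached 1.70 at 96 h, against 0.55, 0.47 and 2.85 with T3. These are medians over genes of differences between group means and were not tested.

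**Figure D5:**
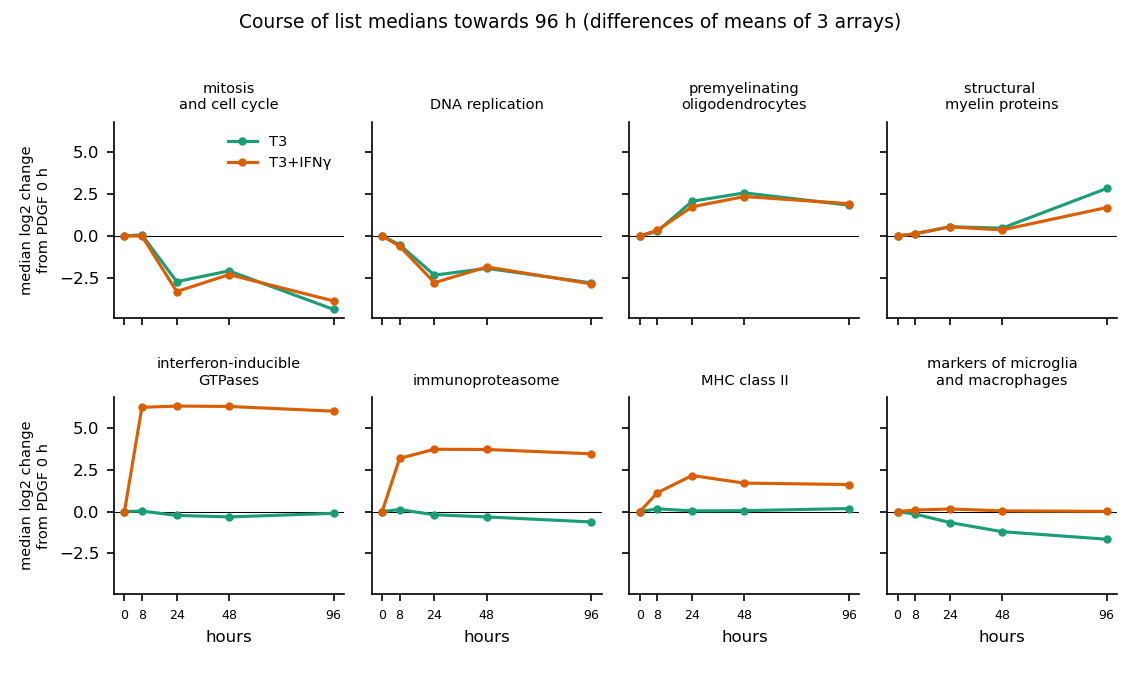
Median log2 change from PDGF progenitors at 0 h over the genes of 8 lists, at 8, 24, 48 and 96 h in T3 (green) and T3+IFNγ cultures (orange); points are differences between means of 3 arrays. GTPase and immunoproteasome genes were near their final level at 8 h with T3+IFNγ, cell cycle genes fell by 24 h in both cultures, and the myelin curves part between 48 and 96 h.

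The oligodendrocyte lineage factors Olig1 and Sox10 and the receptor Pdgfra were high on all 6 arrays (Olig1 from 12.29 to 12.81, Sox10 from 8.80 to 9.38, Pdgfra from 12.12 to 12.77). No 2 arrays of the series were identical, and the highest correlation between any 2 was 0.997. Control probe sets at the 3′ and 5′ ends of Gapdh differed by −0.25, 0.07 and −0.08 in the progenitors and by −0.26, −0.23 and −0.25 in the T3+IFNγ cultures, and those of β-actin by 0.76, 1.10 and 0.90 and by 1.10, 0.98 and 1.06. The array of progenitors with the highest Gapdh value was that of donor 2. Without it, the counts of higher and lower genes were 3324 and 3954.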

How the data were processed

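Cells of 3 donors, which the labels name, were measured on 27 arrays (1 colour) in 9 groups of 3, and samples with the same donor number come from the same donor, which is where the pairing comes from. The deposited values were log2 signals per probe set that the authors made with RMA, per the labels, and limma is the other tool the processing notes name; versions were not given in the sources used here. RMA fits background and probe effects over all arrays and equalises their distributions, so a change shared by most genes would be removed, and bright probe sets such as that of Mbp lie near the top of the range. No column of values was left unused.

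Of 31099 probe sets (57 of them controls), 20832 carried 1 gene symbol in the platform annotation of 2016, 436 several and 9831 none; only those with 1 symbol were used. This gave 14217 genes, 4527 of them with several probe sets, of which the brightest over all arrays was taken. Symbols were updated through RefSeq for build GRCr8, in which 20764 probe sets were found. A linear model with the 9 groups and the donor as a block was fitted to all 27 arrays with limma 3.58.1 in R 4.3.3 (lmFit, contrasts.fit and eBayes; 16 residual degrees of freedom), and p-values were adjusted by Benjamini-Hochberg over 14217 genes, with a threshold of 0.05 and moderated 95% intervals. Files and figures were handled with Python 3.11.15, pandas 2.3.3, NumPy 2.4.6 and matplotlib 3.10.9. Scripts were tested on simulated data.

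The deviations of PDGF and T3+IFNγ arrays from their group means correlated across genes at 0.149, −0.031 and 0.352 within donors 1, 2 and 3, and at −0.307 to 0.158 between arrays of different donors, so the pairing rests on the labels. The precision is limited by the number of arrays, 3 per group. The comparison, the 40 gene lists and the tests were chosen with earlier results of these data known. Named genes were the 15 largest rises and falls that were called and moved alike in 3 of 3 donors; of each list up to 5 called members with the largest change, up to 4 called members against the direction of most, and up to 4 well-known members that were not called; up to 8 genes each way that T3 changed at least 4-fold while T3+IFNγ stayed within 1 of PDGF; and up to 8 each way called in opposite directions. Markers of oligodendrocyte lineage cells were named as well. Alternatives were no donor block, the donor as a random block, the 6 arrays alone, median centring, quantile normalization, genes with a mean of at least 6, the mean of all probe sets of a gene and each donor left out, and, added after seeing the data, the PDGF array of donor 2 left out.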

Additional observations from a re-analysis of the deposited data

Results flagged for a closer look

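Genes called in opposite directions against PDGF in the T3+IFNγ and T3 cultures at 96 h are given here with the direct difference between the cultures, tested by the limma contrast (n = 3 donors each, adjusted over all genes). The genes were chosen by opposite calls on these same arrays, so a direct difference follows from the choice. The adjusted p-values below are therefore no separate evidence. Of the 110 genes higher with T3+IFNγ and lower with T3, the 8 with the largest direct difference are given. The differences were 7.96 for Gbp7, 6.83 for Ifit2, 6.81 for Psmb9, 6.61 for Serping1, 5.80 for Tap1, 5.77 for Ifi44l, 5.77 for Lyz2 and 5.52 for Dtx3l, with adjusted p-values from 1.67e-17 for Tap1 to 2.74e-12 for Lyz2. Of the 17 in the other direction, the 8 largest differences were −2.70 for Mast4, −2.43 for Tmem178a, −2.33 for Arhgap28, −2.01 for Dusp1, −1.49 for Adam19, −1.47 for Mid2, −1.43 for C11h21orf91 and −1.30 for Ak5, with adjusted p-values up to 4.03e-05 for Mid2. Of these 8, the change from PDGF lost its call without donor 2 for Mast4, Arhgap28 and Mid2 (adjusted p = 0.13, 0.0877 and 0.101), without the donor block for Ak5 (0.142) and with the mean of all probe sets for C11h21orf91 (0.0852).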

How the results depend on the processing

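The counts against PDGF, 3487 higher and 4208 lower, stayed within 1.5 times in all 11 alternatives. Leaving out each donor gave 2776 to 3349 higher and 3443 to 4168 lower. The fit without the donor block gave 3178 and 3903, and the fit with the donor as a random block gave 3481 and 4184. The pairing thus moved no total by over 1.5 times. In the direct comparison of T3+IFNγ with T3, leaving out each donor gave 843 to 1237 genes higher and 473 to 1052 lower, in place of 1562 and 1123; the lowest counts were without donor 3, and without donor 2 there were 636 lower. Fewer arrays enter these fits. Without the PDGF array of donor 2 alone, they were 1526 and 1078. Of the 297 named genes, 18 lost their call without the block and 28, 23 and 11 without donors 2, 3 and 1. Pdgfrb changed sign, from −0.36 to 0.10 with the mean of all its probe sets (limma adjusted p = 0.373), and the cause was not tested. With 3 donors, the median half-width of a 95% interval was 0.235, so changes well under that could not be detected for most genes, and dim probe sets carry only small differences.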
